A study of Saccharomyces cerevisiae with 23 samples.

Results

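Levels of 10 genes of the DNA damage checkpoint of budding yeast, out of 6867 named genes in the tables, were measured over a synchronised meiosis; they were taken by gene name: MEC1, TEL1, RAD17, RAD24, DDC1, MEC3, RAD9, RAD53, DUN1 and CHK1. On chromosome II lie MEC1 (YBR136W, chrII:505668-512774), TEL1 (YBL088C, chrII:51019-59382) and CHK1 (YBR274W, chrII:749594-751177). Chromosome IV holds RAD9 (YDR217C, chrIV:899551-903480) and DUN1 (YDL101C, chrIV:280307-281848), and chromosome XVI holds DDC1 (YPL194W, chrXVI:179277-181115) and RAD53 (YPL153C, chrXVI:261727-264192). The others are RAD24 (YER173W, chrV:536300-538279), MEC3 (YLR288C, chrXII:713480-714904) and RAD17 (YOR368W, chrXV:1026843-1028048). TEL1 and MEC1 are by far the longest, at 8364 and 7107 bases, against 1206 to 3930 for the rest. All 10 were among the 6560 genes tested, which had a mean of at least 1 FPKM (fragments per kilobase of transcript, relative to the mapped fragments of the library, so a level per length).

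The cells were Saccharomyces cerevisiae of 1 strain, labelled strain A 33606, grown in YPD, then BYTA, and moved to SPO (sporulation) medium at 0 h. At 2 h copper sulphate switched on IME1, the master regulator of meiotic entry, and IME4, an mRNA methyltransferase gene, both under copper control per the labels. All 23 libraries share the strain and the medium, and the libraries after 2 h also share the copper; no culture without copper was compared here, and the labels do not say whether the 2 h cells were taken before or after copper. There was 1 library of total RNA per time: a single library at 0 h, then 5 in the window 2 to 3 h (every 0.25 h), 6 in the window 3.25 to 4.5 h, 6 in the window 4.75 to 6 h and 5 at 6.5, 7, 7.5, 8 and 10 h. These last 4 windows of consecutive times stand in for groups, so the spread within one holds both real change and error, and no time has a replicate. In a culture, fewer cells with a transcript and less transcript per cell cannot be told apart.

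The checkpoint senses broken or single-stranded DNA and holds the cell cycle until repair is done. Mec1 and Tel1 are the sensor kinases, the yeast counterparts of ATR and ATM. Rad17, Ddc1 and Mec3 form a ring-shaped clamp that Rad24, with the small RFC subunits, loads next to the damage. Rad9 is the adaptor that brings the effector kinase Rad53 to Mec1, while Dun1 acts below Rad53 on the supply of nucleotides and Chk1 protects the securin Pds1. In meiosis the same sensors answer the programmed breaks made by Spo11, but the signal then runs largely through Hop1, Red1 and the kinase Mek1.

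Promoter sequence is shown for the 4 members whose FPKM was highest at 3 h, since 3 of them carry a motif known from cell cycle or early meiotic genes and the fourth does not. Each window runs from 250 bases before the annotated start to 50 bases after it, and all 10 members have the start codon at that position. The sequences are from the RefSeq R64 assembly, the build the processing notes name, at chrXV:1026593-1026892 (RAD17, plus strand), chrIV:281799-282098 (DUN1, minus strand), chrXVI:179027-179326 (DDC1, plus strand) and chrXVI:264143-264442 (RAD53, minus strand). Capitals mark motif matches.
RAD17: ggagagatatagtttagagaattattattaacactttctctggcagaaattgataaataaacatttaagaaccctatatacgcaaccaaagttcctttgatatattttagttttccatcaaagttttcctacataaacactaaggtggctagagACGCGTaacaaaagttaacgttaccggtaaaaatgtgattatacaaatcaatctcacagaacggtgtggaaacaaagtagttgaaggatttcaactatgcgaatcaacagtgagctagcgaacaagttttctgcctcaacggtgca
DUN1: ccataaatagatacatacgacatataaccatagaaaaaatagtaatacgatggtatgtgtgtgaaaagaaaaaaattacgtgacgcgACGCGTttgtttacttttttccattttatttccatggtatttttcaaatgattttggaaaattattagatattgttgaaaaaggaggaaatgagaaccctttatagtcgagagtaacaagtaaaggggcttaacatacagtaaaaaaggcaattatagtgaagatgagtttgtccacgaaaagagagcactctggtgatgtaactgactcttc
DDC1: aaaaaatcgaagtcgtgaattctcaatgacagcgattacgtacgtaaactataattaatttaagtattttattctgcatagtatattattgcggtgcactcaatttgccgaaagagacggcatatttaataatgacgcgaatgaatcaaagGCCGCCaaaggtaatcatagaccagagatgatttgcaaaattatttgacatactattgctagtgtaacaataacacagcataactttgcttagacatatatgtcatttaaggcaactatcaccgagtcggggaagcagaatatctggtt
RAD53: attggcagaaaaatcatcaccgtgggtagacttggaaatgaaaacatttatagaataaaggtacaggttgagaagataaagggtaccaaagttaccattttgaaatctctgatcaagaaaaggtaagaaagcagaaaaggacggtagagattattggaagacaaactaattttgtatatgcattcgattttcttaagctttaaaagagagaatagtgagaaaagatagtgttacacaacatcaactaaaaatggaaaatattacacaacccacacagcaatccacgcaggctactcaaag

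In RAD17 the capitals are ACGCGT, the core of the MCB element that the G1/S factor MBF binds, with its first base at -96 from the start. DUN1 holds the same 6 letters from -163. In DDC1 the capitals are GCCGCC, which is GGCGGC on the other strand, from -99; this is the core of URS1, the site of Ume6 in early meiotic genes. Of 6001 promoters of this length, 3.07% hold ACGCGT and 5.13% hold GGCGGC on either strand. The core CACAAA of the middle sporulation element was in 0 of the 10 members' windows and in 18.8% of all, and CGCGAAA, an SCB-like core, was in 0 of 10 and in 3.60% of all. Both strands were searched for each motif, and no 2 matches overlapped. A match says only that these letters are present.

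Depth and median FPKM both differed between libraries, and this bears on every late value. Fragments assigned to genes, as implied by the deposited bounds, numbered 600224 to 1467241 per library from 2 to 6 h and 368883 to 914763 from 6.5 to 10 h. The median FPKM of the tested genes was 8.51 to 19.5 from 4.75 to 6 h and 2.55 to 12.1 from 6.5 to 10 h. Depth and median did not go together throughout: 914763 fragments and 7.14 FPKM at 6.5 h, against 600224 and 10.3 at 4 h. Values are therefore given as deposited and also scaled, that is, divided by a median-of-ratios factor per library from the 5046 genes above 0 in every library. Such scaling takes most genes as unchanged between libraries, which was not tested. A member's FPKM rested on 1 to 1185 implied fragments, and 24 of the 230 member values rested on fewer than 10. The meiotic markers were present: NDT80, which starts the meiotic divisions programme, went from 1.18 FPKM at 2 h to 438 at 6.5 h. All 10 meiotic stage markers changed over the course on both scales. Of all tested genes, 83.0% changed as deposited and 78.0% when scaled. Of the 8 haploid mating markers 5 changed on both scales, and MF(ALPHA)1 and MFA2 were listed at 0 at 0 h. The summed FPKM of the 8 was 195 at 0 h and, in the 4 windows in turn, 1566 to 3899, 1165 to 7483, 959 to 3161 and 292 to 1734. MFA1 alone stood at 188 FPKM at 0 h and at 7302 at 4.5 h. The median of the 8 markers ran only from 1.07 FPKM at 0 h to 6.64 at 4.75 h. What part such transcripts have in the results below was not tested.

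By mean FPKM over the 23 libraries the members ran from DDC1 (38.2 ± 25.3, SD, n = 23) through MEC3 (27.5 ± 18.4), MEC1 (19.7 ± 13.3), DUN1 (10.1 ± 8.01), RAD53 (9.48 ± 6.62), RAD17 (8.19 ± 5.75), TEL1 (7.67 ± 3.30), RAD9 (7.07 ± 2.59) and CHK1 (4.03 ± 2.40) to RAD24 (3.56 ± 1.72). The SD covers change over time. No pair of neighbours in this order was further apart than that spread, which leaves out the pairing within libraries. Library by library, DDC1 was above MEC3 in 18 of 23, MEC3 above MEC1 in 18, MEC1 above DUN1 in 19 and RAD9 above CHK1 in 20. For the other neighbours the count was 11 to 14, with CHK1 above RAD24 in 13. The clamp subunits DDC1 and MEC3 stood at the top and the clamp loader RAD24 at the bottom. RAD17, the third clamp subunit, stood well below its partners, with a DDC1/RAD17 ratio between 1.43 and 8.74 in the libraries from 2 h on.

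Over the whole course from 2 to 10 h, 9 of 10 members changed on the deposited scale, where 83.0% of all tested genes did, and 7 of 10 changed on the scaled values, against 78.0% of all genes. The call was an adjusted p under 0.05 in limma's test of a smooth curve in time together with a fitted range of at least 1 on log2(FPKM + 1). RAD9 was the member that missed the call as deposited (fitted range 1.01, adjusted p = 0.328), and it passed when scaled (1.85, adjusted p = 3.8e-05). TEL1, RAD17 and RAD24 passed as deposited but not when scaled (adjusted p = 0.0699, 0.138 and 0.424 in limma). RAD17's deposited call was lost without the 8 h library (adjusted p = 0.0606). Without the 7 h and 7.5 h libraries 6 of 10 were called as deposited, with TEL1, RAD17 and RAD24 missing (limma adjusted p = 0.107, 0.0718 and 0.0657). Of all genes, 4825 of 6560 were called without these 2 libraries. The shares with every library from 2 h on, 9 and 7 of 10, are near those of all genes.

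**Figure D1:**
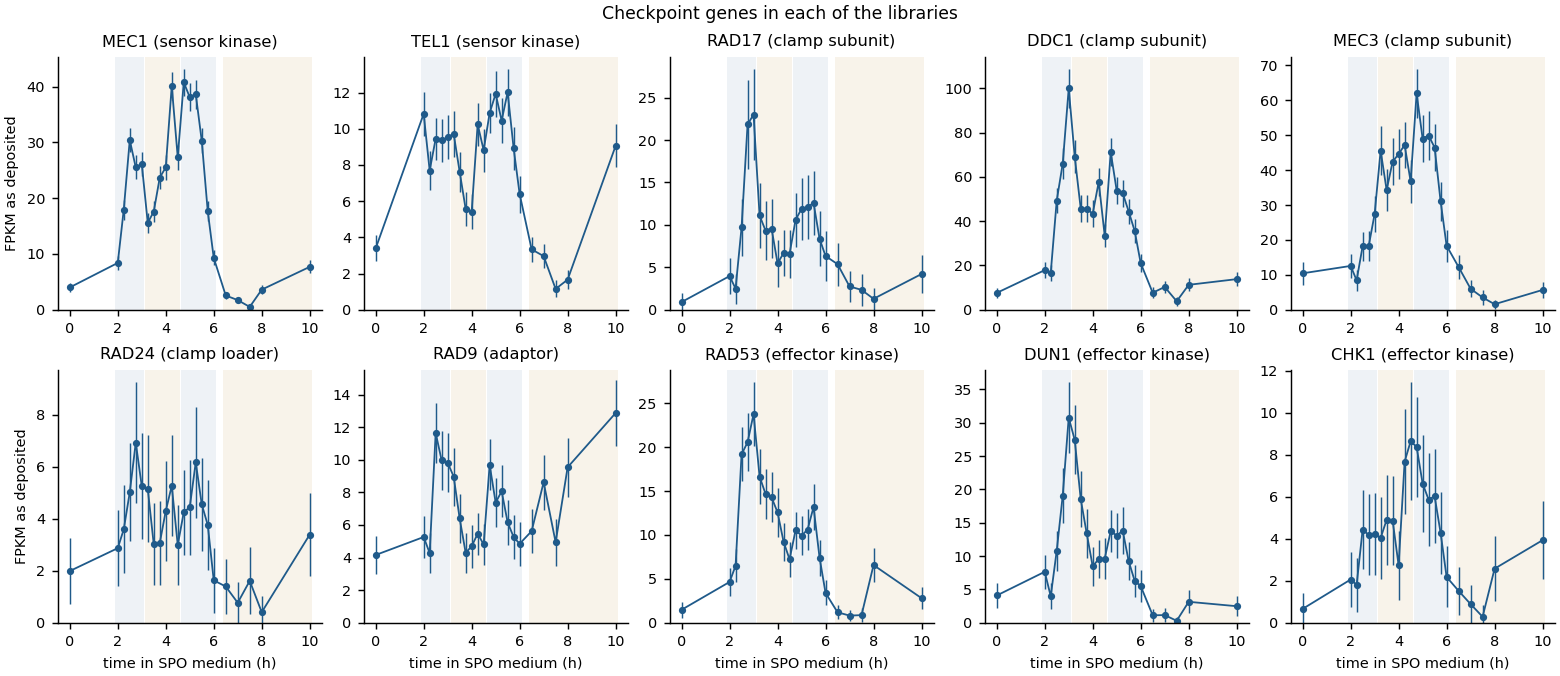
FPKM of each member as deposited (y axis, linear, a scale per panel) against hours in SPO medium; points are single libraries, bars the deposited lower and upper bounds, and shading the 4 windows. RAD17, DDC1, RAD53 and DUN1 were highest at 3 h, at 23, 100.003, 23.8 and 30.8 FPKM, while RAD9 was highest at 10 h, at 12.9.

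The clamp subunits did not share one time of highest level. DDC1 stood at 17.9, 16.6, 49.3, 66 and 100.003 FPKM at 2, 2.25, 2.5, 2.75 and 3 h. RAD17 over the same 5 libraries stood at 3.97, 2.49, 9.71, 21.8 and 23 FPKM. Both were low in the 2 libraries up to 2.25 h and higher in the 3 that followed. MEC3 stood at 12.6, 8.43, 18.2, 18.2 and 27.4 FPKM in these libraries, then between 34.3 and 47.2 (median 43.5, n = 6) from 3.25 to 4.5 h. Every MEC3 value from 3.25 to 4.5 h was thus above every value from 2 to 3 h, whereas DDC1 (33.4 to 69.1, median 45.6) and RAD17 (5.47 to 11.1, median 7.99) overlapped their earlier range.

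This difference in timing within the clamp was tested on ratios within a library, which no scaling of libraries can move. The MEC3/RAD17 ratio had a geometric mean of 1.82 from 2 to 3 h (range 0.832 to 3.39, n = 5) and 5.28 from 3.25 to 4.5 h (3.68 to 8.16, n = 6), a log2 difference of 1.54 (exact two-sided permutation test, p = 0.00433, the smallest these numbers allow, adjusted p = 0.0260). MEC3/DDC1 went from 0.398 (0.274 to 0.702) to 0.867 (0.660 to 1.10), a log2 difference of 1.13 (exact two-sided permutation test, p = 0.00866, adjusted p = 0.0416). For DDC1/RAD17 the geometric means were 4.58 and 6.08 and their ranges overlapped (exact permutation test, adjusted p = 0.281). In this pair of windows MEC3 therefore rose relative to both partners. The first window holds a dip: MEC3/RAD17 stood at 3.17 at 2 h, 0.832 at 2.75 h and 1.19 at 3 h. MEC3/DDC1 went from 0.702 at 2 h to 0.274 at 3 h. At 0 h MEC3/RAD17 was 11.5, on 3 implied fragments of RAD17, and MEC3/DDC1 was 1.37. The 0 h ratios were not part of the test. Ratios of 8 pairs over 3 steps gave 24 tests, adjusted together, and 5 passed. The pairs were chosen after the values had been seen.

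Between the windows from 3.25 to 6 h no clamp gene was called. DDC1 lay between 21.0 and 71.2 FPKM (median 48.5) from 4.75 to 6 h, RAD17 between 6.33 and 12.6 (median 11.2) and MEC3 between 18.3 and 62.0 (median 47.8). The lowest of the 6 values was at 6 h in all 3 genes. From 6.5 h on, DDC1 stood at 7.68, 10.3, 3.83, 11.3 and 13.8 FPKM at 6.5, 7, 7.5, 8 and 10 h. MEC3 stood at 12.2, 6.01, 3.52, 1.59 and 5.68 in these libraries, and RAD17 at 5.37, 2.75, 2.34, 1.29 and 4.21. None of these late values reached the range from 4.75 to 6 h. All 3 fell as deposited (-2.2 for DDC1, -2.79 for MEC3 and -1.49 for RAD17 on the log2(FPKM + 1) scale, with SE 0.42, 0.37 and 0.42; limma adjusted p = 0.000229, 5.8e-06 and 0.00537). When scaled, DDC1 fell by 1.08 (limma adjusted p = 0.00898) and MEC3 fell by 1.71 (adjusted p = 0.000386), while the RAD17 difference was -0.49 (adjusted p = 0.338). The MEC3/RAD17 ratio fell from 3.98 (2.89 to 5.85, n = 6) to 1.66 (1.23 to 2.28, n = 5), a log2 difference of -1.26 (exact two-sided permutation test, adjusted p = 0.0260). It was already falling within the earlier window, from 5.85 at 4.75 h to 2.89 at 6 h, so the test does not place a step between the windows.

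RAD24, the subunit that turns the RFC complex into the loader of this clamp, was the member of lowest mean level, between 0.405 FPKM at 8 h and 6.93 at 2.75 h. Of its row, 18.0% overlaps YER172C-A, and strand was not stated, so reads of the pair cannot be told apart there. It fell from the 4.75 to 6 h window to the 6.5 to 10 h window as deposited (-1.08, SE 0.31, limma adjusted p = 0.00654), but the fall was under 1 without the 5.25, 7 or 8 h library (-0.97, -0.98 and -0.90), and the scaled difference was -0.25 (adjusted p = 0.533). Its values rested on 2 to 35 implied fragments.

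**Figure D2:**
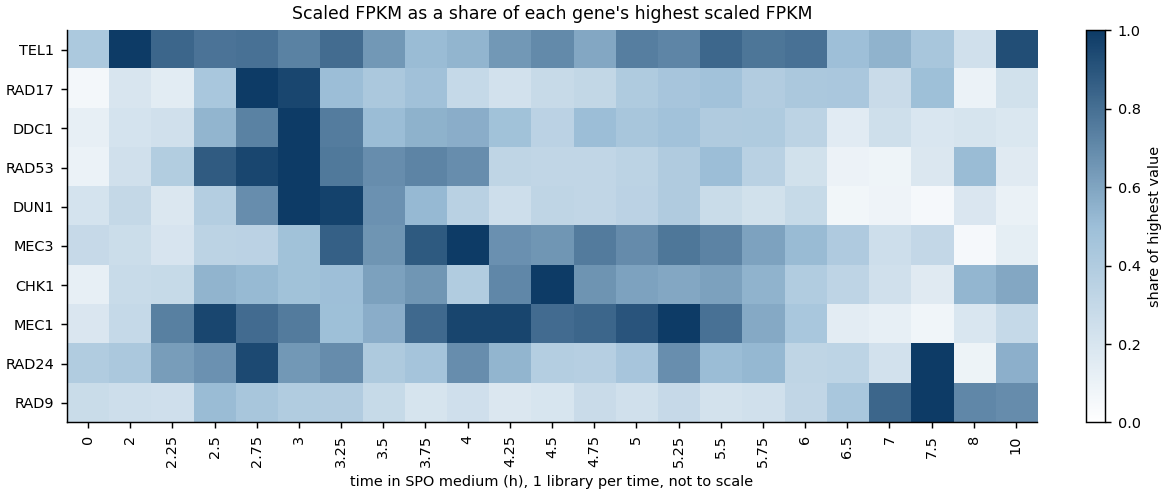
Scaled FPKM of each member as a share of its own highest scaled value (colour), with members ordered by the time of that value and libraries in order of time. The highest scaled values of RAD17, DDC1, RAD53 and DUN1 fall at 2.75 or 3 h and the 4 darkest cells of RAD9 at 7 to 10 h; the RAD24 value at 7.5 h rests on 6 implied fragments.

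Of the sensor kinases, MEC1 varied much more than TEL1. MEC1 stood at 8.39, 18.0, 30.4, 25.5 and 26.1 FPKM from 2 to 3 h, then at 15.6 to 40.1 (median 24.6, n = 6) from 3.25 to 4.5 h and at 9.30 to 40.8 (median 34.2, n = 6) from 4.75 to 6 h. At 6.5, 7, 7.5, 8 and 10 h it stood at 2.56, 1.73, 0.510, 3.60 and 7.69 FPKM. Its early libraries overlap one another across windows, and its 5 late ones lie below all 6 of the window before. Between these last windows MEC1 fell by 2.92 on the log2(FPKM + 1) scale as deposited (SE 0.44, limma adjusted p = 2.1e-05) and also fell when scaled (-2.02, SE 0.31, adjusted p = 3.7e-05). Without the 7 h and 7.5 h libraries the MEC1 differences were -2.37 and -1.68, and those of MEC3 -2.74 and -2.04.

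TEL1 was already at 10.8 FPKM at 2 h, against 3.39 at 0 h, with deposited bounds that do not overlap (9.59 to 12.1 and 2.67 to 4.11). It lay between 5.42 and 12 FPKM in every library from 2 to 6 h, and at 3.34, 2.96, 1.15, 1.66 and 9.05 FPKM at 6.5, 7, 7.5, 8 and 10 h. The 10 h library thus stands apart from the other 4 of its window. TEL1 fell as deposited (-1.46, SE 0.31, limma adjusted p = 0.000588) but the scaled difference of -0.51 missed the call (adjusted p = 0.0653). The MEC1/TEL1 ratio was 2.62 (1.45 to 3.75) from 4.75 to 6 h and 0.817 (0.443 to 2.17) from 6.5 to 10 h, and its log2 difference of -1.68 did not pass (exact two-sided permutation test, p = 0.0130, adjusted p = 0.0519).

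Among the effector kinases, RAD53 and DUN1 were highest at 3 h and CHK1 at 4.5 h. RAD53 stood at 4.64, 6.49, 19.2, 20.6 and 23.8 FPKM from 2 to 3 h, then between 7.22 and 16.7 (median 13.4) from 3.25 to 4.5 h and between 3.40 and 13.2 (median 10.2) from 4.75 to 6 h. DUN1 stood at 7.64, 3.97, 10.8, 19.1 and 30.8 FPKM from 2 to 3 h, then between 8.45 and 27.4 (median 11.5) and between 5.49 and 13.8 (median 11.1). Both were at their highest in the last library of the first window, and their later windows overlap it. CHK1 stood at 2.06, 1.81, 4.43, 4.18 and 4.23 FPKM from 2 to 3 h, then between 2.73 and 8.64 (median 4.88) and between 2.18 and 8.37 (median 5.94). It was the lowest of the 3 kinases by mean, on 1 to 49 implied fragments.

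From 6.5 to 10 h the 3 kinases did not keep to one order. RAD53 stood at 1.19, 0.811, 0.865, 6.57 and 2.80 FPKM at 6.5, 7, 7.5, 8 and 10 h. DUN1 stood at 1.12, 1.14, 0.292, 3.14 and 2.48, and CHK1 at 1.52, 0.886, 0.283, 2.57 and 3.93. DUN1 was below its 4.75 to 6 h range in every late library, whereas RAD53 and CHK1 overlapped theirs. DUN1 fell by 2.14 as deposited (SE 0.43, limma adjusted p = 0.000344) and also fell when scaled (-1.36, SE 0.36, adjusted p = 0.00499), though without the 7 h and 7.5 h libraries the scaled call was lost (-1.14, adjusted p = 0.0520). RAD53 (-1.71, SE 0.43) and CHK1 (-1.29, SE 0.36) fell as deposited in limma (adjusted p = 0.00247 and 0.00540). Their scaled differences of -0.84 and -0.54 missed the call (adjusted p = 0.0841 and 0.0934), and so did the deposited ones without the 7 h and 7.5 h libraries (-1.27 and -0.81, adjusted p = 0.0528 and 0.102). The DUN1/CHK1 ratio fell from 1.87 (1.47 to 2.52, n = 6) to 0.945 (0.630 to 1.29, n = 5), a log2 difference of -0.99 (exact two-sided permutation test, adjusted p = 0.0260). The ratio was not steady before: it stood at 7.27 at 3 h, 1.25 at 4.25 h, 1.11 at 4.5 h and 2.52 at 6 h. The values at 4.25 and 4.5 h lie within the late range, so a low ratio was not particular to the last window. At 6.5, 7 and 7.5 h the ratio rested on 5, 5 and 1 implied fragments of DUN1 and 7, 4 and 1 of CHK1.

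RAD9 followed another course. It stood at 5.26, 4.27, 11.6, 9.96 and 9.82 FPKM from 2 to 3 h, between 4.29 and 8.97 (median 5.13, n = 6) from 3.25 to 4.5 h and between 4.84 and 9.69 (median 6.76, n = 6) from 4.75 to 6 h. At 6.5, 7, 7.5, 8 and 10 h it stood at 5.62, 8.62, 4.94, 9.54 and 12.9 FPKM, on 47 to 159 implied fragments. As deposited these late values overlap the earlier ones; when scaled they were 8.39, 16.0, 19.2, 13.6 and 13.2, all above the 4.30 to 6.06 of the window before. RAD9 did not differ detectably as deposited (0.20, SE 0.29, limma adjusted p = 0.577) and rose by 1.28 when scaled (SE 0.23, adjusted p = 0.000171). Without the 7 h and 7.5 h libraries the scaled rise was 1.05 (adjusted p = 0.00481). The RAD9/RAD53 ratio, free of any scaling, rose from 0.791 (0.467 to 1.43, n = 6) to 4.53 (1.45 to 10.6, n = 5), a log2 difference of 2.52 (exact two-sided permutation test, adjusted p = 0.0260). RAD53 rested on only 9, 6 and 5 implied fragments at 6.5, 7 and 7.5 h, where the ratio was 4.72, 10.6 and 5.71. At 8 h, on 46 fragments of RAD53, the ratio was 1.45, and at 10 h, on 21, it was 4.60. The adaptor transcript was below that of its kinase in each library from 2.25 to 5.75 h and above it in each library from 6 h on. It was also above that of its kinase at 0 h and 2 h, with ratios of 2.82 and 1.13, so this order was not particular to the late libraries.

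**Figure D3:**
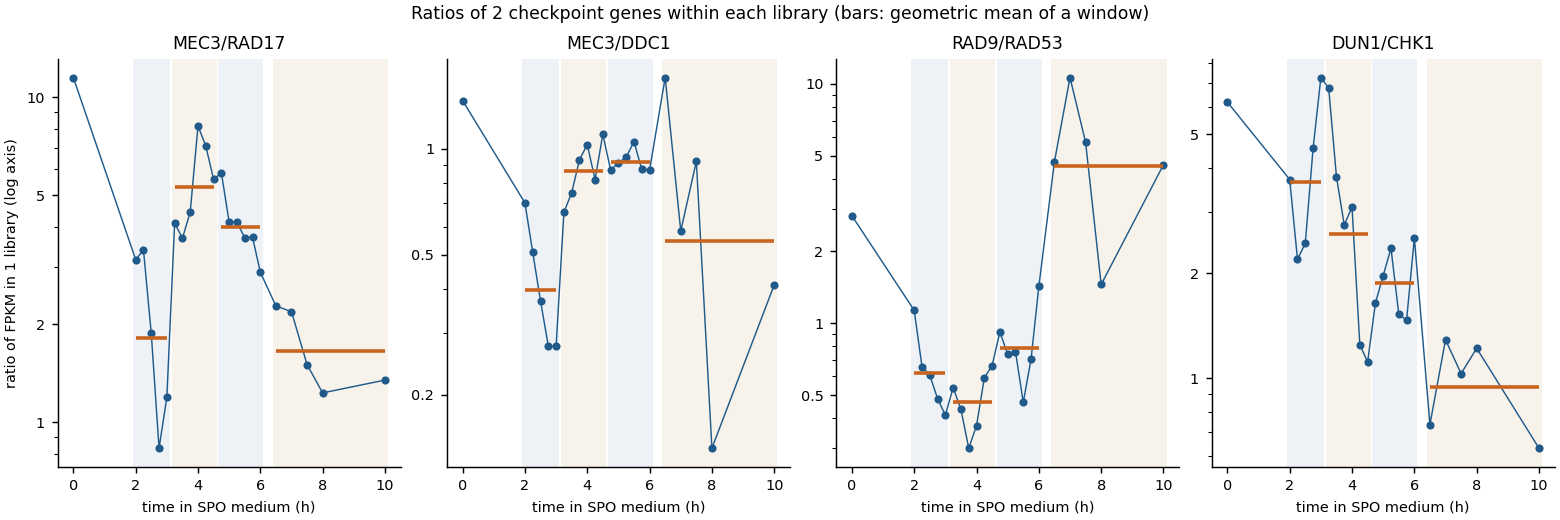
Ratios of FPKM of 2 members in the same library (y axis, log scale) against hours in SPO medium; points are libraries, orange bars the geometric mean of each window. MEC3/RAD17 has a mean of 1.82 from 2 to 3 h and 5.28 from 3.25 to 4.5 h. It was 11.5 at 0 h and lowest at 2.75 h, at 0.832. RAD9/RAD53 has a mean of 0.791 from 4.75 to 6 h and 4.53 from 6.5 h on, with 1.45 at 8 h. It was 2.82 at 0 h and 1.13 at 2 h.

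Set against all genes, the late window shows how much rests on the scale. As deposited 9 of 10 members fell from the 4.75 to 6 h window to the 6.5 to 10 h window, where 43.8% of all tested genes fell. When scaled, 4 of 10 fell (MEC1, MEC3, DUN1 and DDC1), against 17.1% of all genes. RAD9 was 1 of 10 that rose when scaled, against 15.8% of all genes; as deposited 0 of 10 rose, against 4.09% of all genes, and all 9 members with an unadjusted limma p under 0.05 were lower. The median difference was -1.60 for the members and -0.99 for all genes as deposited, and -0.69 and -0.06 when scaled.

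In the other planned steps the members did not move as whole windows. From 2 to 3 h to 3.25 to 4.5 h, 0 of 10 were called in limma on either scale, against 0.229% of all genes as deposited and 0.976% when scaled; 1 member had an unadjusted p under 0.05 on each. MEC3 had the largest difference there, 1.34 as deposited (SE 0.37, limma adjusted p = 0.127) and 1.25 when scaled (adjusted p = 0.0666). From 3.25 to 4.5 h to 4.75 to 6 h, 0 of 10 were called, against 3.38% as deposited and 1.55% when scaled, and 0 had an unadjusted limma p under 0.05.

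The first window was split after its values had been seen, since RAD17, DDC1, RAD53 and DUN1 differed so much within it. Between 2 to 2.25 h (2 libraries) and 2.5 to 3 h (3 libraries), 3 of 10 members rose as deposited, against 4.95% of all genes, and the same 3 rose when scaled, against 3.78%. RAD17 rose by 2.12 (SE 0.41, limma adjusted p = 0.00524), DDC1 by 1.94 (SE 0.45, adjusted p = 0.0164) and RAD53 by 1.77 (SE 0.48, adjusted p = 0.0374) on the log2(FPKM + 1) scale as deposited. DUN1, the fourth, was 1.58 higher and missed the call (SE 0.47, limma adjusted p = 0.0578). TEL1 differed by 0.04 (SE 0.49). The members' median was 1.04 and that of all genes 0.21 as deposited, and 0.76 and -0.02 when scaled.

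These early calls rest on few libraries. RAD17 missed the call without the 2.25 h library (limma adjusted p = 0.0527), and DDC1 without the 2, 2.25, 2.75 or 3 h library (adjusted p = 0.139, 0.0836, 0.0534 and 0.0773). RAD53 missed it without any 1 of 10 libraries, those at 2, 2.25, 2.5, 2.75, 3, 3.5, 4.75, 5, 5.25 and 5.75 h (limma adjusted p from 0.0515 to 0.328). DUN1 passed without the 2.5, 7.5 or 10 h library (adjusted p = 0.0272, 0.0147 and 0.0401). Between 2.5 to 3 h and 4 to 4.5 h, also chosen after the fact, 0 of 10 members fell in limma on either scale, against 1.33% of all genes as deposited and 1.77% when scaled. On the 2 scales 5 and 6 members had an unadjusted limma p under 0.05, counted in either direction. RAD17 had the largest of these differences, -1.32 (SE 0.36, limma adjusted p = 0.0764), and passed without the 2.5 h or 10 h library (-1.70 and -1.32, adjusted p = 0.0394 and 0.0361).

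**Figure D4:**
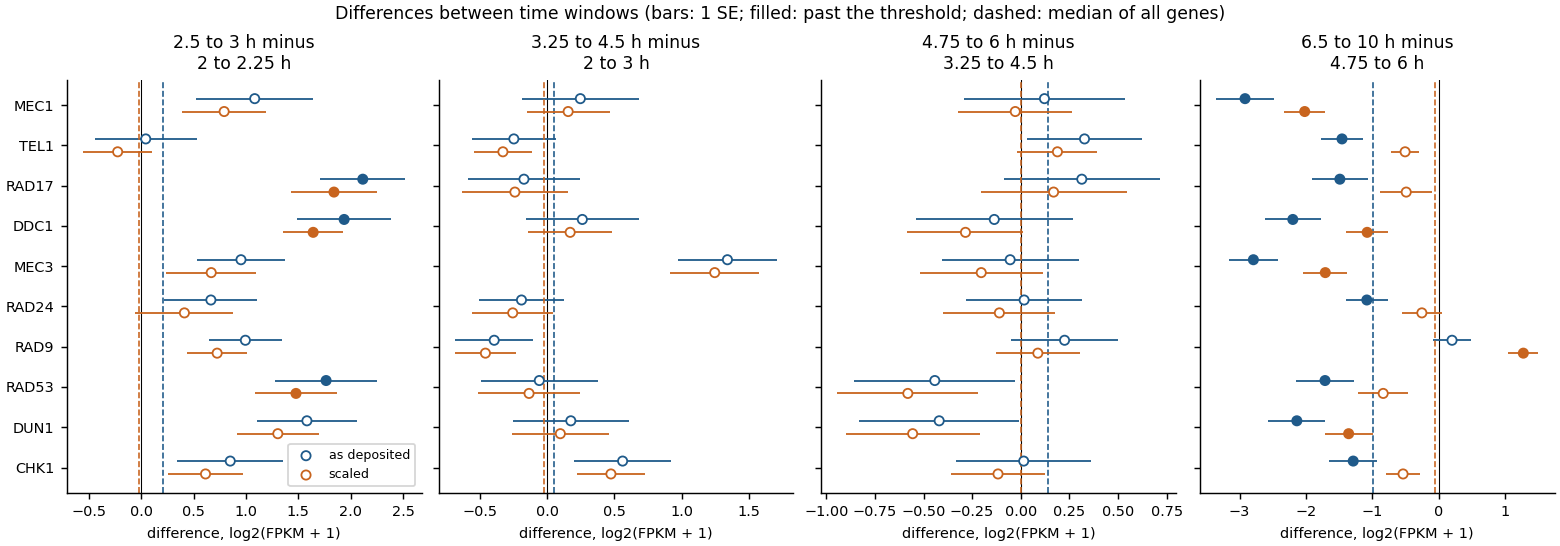
Differences between windows for each member on the log2(FPKM + 1) scale (x axis; bars are 1 SE), as deposited (blue) and scaled (orange), with filled points past the threshold and dashed lines at the median of all genes. In the last panel the blue median lies at -0.99, and RAD9 is the member to the right of 0 on both scales.

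At 2 h, 2 h after transfer, 4 of 10 members (TEL1, RAD17, DDC1 and RAD53) were at least 2-fold above 0 h on FPKM + 1 as deposited, where 22.3% of all genes were, and 2 of 10 (TEL1 and RAD17) when scaled, against 13.1%. Each time is 1 library, so there is no test. The deposited bounds of the 2 libraries were apart for MEC1, TEL1, DDC1 and RAD53. MEC3 and RAD9 hardly differed, at 10.4 and 12.6 FPKM and at 4.16 and 5.26 FPKM. RAD17 stood at 0.909 FPKM at 0 h on 3 implied fragments.

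Of 19 partners of the checkpoint, 11 rose from 2 to 2.25 h to 2.5 to 3 h as deposited and 9 when scaled, where 4.95% and 3.78% of all genes rose. Among them were RFA1 (2.22 as deposited), a subunit of the single-strand binding protein RPA that recruits Mec1, MRC1 (2.29), the replication fork adaptor for Rad53, and RTT107 (2.25), a scaffold at damaged forks. MRC1 was highest at 3 h, at 94.5 FPKM, and RFA1 at 3 h, at 153. RAD50, of the break-end complex MRX, was highest at 5 h, at 24.0 FPKM. From the 4.75 to 6 h window to the last, 12 of 19 partners fell as deposited, against 43.8% of all genes, and 8 when scaled, against 17.1%. Their medians were -1.45 and -0.57, beside -0.99 and -0.06 for all genes. LCD1, whose product (Ddc2) is the partner of Mec1, was the 1 of 19 that rose when scaled, by 1.76, against 15.8% of all genes. The 2 subunits thus differed in sign there, where MEC1 had -2.02 when scaled; their ratio was not tested.

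Of 25 genes of DNA replication, 11 rose at this early step as deposited and 13 when scaled, against 4.95% and 3.78% of all genes. The medians of the 25 were 1.54 and 1.25, beside 0.21 and -0.02 for all genes. POL2, the catalytic subunit of DNA polymerase epsilon, rose by 2.85 as deposited to its highest level of 90.2 FPKM at 3 h. MCM3 and MCM6, of the replicative helicase, rose by 1.56 and 1.90 and were highest at 2.75 h, at 76.6 and 61.1 FPKM. ORC1, of the origin recognition complex, was highest at 7 h, at 104 FPKM. At the last step 17 of 25 fell and 2 rose as deposited, where 43.8% of all genes fell and 4.09% rose. When scaled, 8 fell and 3 rose, against 17.1% and 15.8% of all genes.

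Of 13 targets below the kinases, 4 rose at the early step as deposited and 2 when scaled, against 4.95% and 3.78% of all genes. RNR1, the large subunit of ribonucleotide reductase, rose by 2.80 as deposited and was highest at 3 h, at 108 FPKM. SML1, the inhibitor of that enzyme which Dun1 marks for destruction, was highest at 4.25 h, at 5960 FPKM. In the last step 6 of 13 fell as deposited, while 3 fell and 2 rose when scaled; these counts are near the shares of all genes (43.8% lower as deposited, 17.1% lower and 15.8% higher when scaled). SML1 fell there on both scales (-3.37 as deposited and -2.16 when scaled). So did DBF4, the regulatory subunit of the Cdc7 kinase (-2.32 and -1.16), and RFX1 (also called CRT1), the repressor of damage-inducible genes (-2.56 and -1.58).

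Of 15 genes known to be induced by DNA damage, 2 rose at the early step as deposited (RAD54 by 1.37 and CDC9 by 1.96), against 4.95% of all genes. Neither passed when scaled, where 3.78% of all genes rose. This list shares RNR3 and HUG1 with the targets. In the last step 7 fell and 1 rose as deposited, and 3 fell and 3 rose when scaled, again near the shares of all genes (43.8% and 4.09%, then 17.1% and 15.8%). MAG1, a DNA glycosylase gene, fell on both scales (-2.38 as deposited and -1.38 when scaled), and so did PHR1, the photolyase gene (-2.47 and -1.56). DIN7, a mitochondrial nuclease gene, was highest at 6.5 h, at 187 FPKM, and rose by 2.52 when scaled. RAD23, of nucleotide excision repair, was highest at 4.75 h, at 287 FPKM.

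In the meiotic branch of the pathway the genes called early had larger differences than any member. Of 7 genes, 4 rose at the early step on both scales, against 4.95% of all genes as deposited and 3.78% when scaled. The median of the 7 was 2.86 as deposited. RED1, of the chromosome axis, rose by 3.59, PCH2, a meiotic checkpoint ATPase, by 2.86 and SPO11, the break-making enzyme, by 2.78. At 2 and 2.25 h, both in the earlier part of this step, HOP1 stood at 1.23 and 122 FPKM and MEK1 at 0.660 and 208. The step therefore does not place the start of their rise. In the last step 5 of 7 fell on both scales (43.8% and 17.1% of all genes), with a median difference of -2.92 when scaled and -3.38 for PCH2. NDT80, whose activation the checkpoint holds back, rose by 4.22 as deposited from 3.25 to 4.5 h to 4.75 to 6 h.

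Of 7 genes that switch the checkpoint off, SRS2, a helicase needed for recovery from arrest, was called from 2 to 3 h to 3.25 to 4.5 h (1.63 as deposited, 1.53 when scaled); it was highest at 3.75 h, at 30.4 FPKM. PSY4, of the phosphatase that removes the damage mark from histone H2A, and PTC3, a phosphatase acting on Rad53, fell in the last step as deposited (-1.38 and -1.12), and neither passed when scaled. The 5 reference genes were not flat. At that step 3 fell and 2 rose as deposited, with -1.85 for ACT1 and 1.19 for UBC6, and 1 fell and 2 rose when scaled, so none of them was used to normalise.

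The genes whose scaled log2(FPKM + 1) course was most like that of a member, over 23 libraries that share their depth and scaling, differed from member to member. They were taken from 3353 candidates with a mean of at least 10 FPKM, and Pearson's r is given as a description. MEC1 was most like SCT1 (0.98), BDF1 (0.96) and INP52 (0.95), and TEL1 like GPR1 (0.83), MDR1 (0.78) and NPR3 (0.77). DDC1 was most like RFA2 (0.96), another RPA subunit gene, then GAA1 and ERP4 (both 0.92). RAD17 was most like PMS1 (0.84), of mismatch repair, CSA1 (0.83) and PIF1 (0.82), a DNA helicase gene, and MEC3 like VPS1 (0.92), HUT1 (0.91) and ATG7 (0.91). RAD24 had the weakest likeness, to RMR1 (0.75), VPS29 (0.72) and OMA1 (0.71). RAD9 was most like PSF3 (0.93), of the GINS complex, TAF1 (0.92) and SPA2 (0.89). RAD53 was most like TOS4 (0.89), TOP3 (0.88) and TOP1 (0.87), DUN1 like SMC1 (0.94), of cohesin, MIF2 (0.93) and ERV25 (0.92), and CHK1 like GVP36 (0.88), STH1 (0.87) and TAM41 (0.84). Among the 45 pairs of members themselves r was highest for DDC1 with DUN1 (0.84) and lowest for MEC1 with RAD9 (-0.70).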

How the data were processed

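Per the labels' protocols, an Ambion Ribopure kit gave total RNA, and NuGEN Ovation Universal reagents with random hexamers gave the libraries. For each library the authors deposited FPKM of every gene with lower and upper bounds, per the file headers. Bowtie and Cufflinks 2.2.1 with R64 and sacCer3 are named in the submitters' processing notes; no source used here gives the Bowtie version, the annotation or the strand setting.

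Each table had 7132 rows; 11 marked as having too many fragments and 254 without a gene name were left out, leaving 6867. Of 6710 identifiers 6020 matched the RefSeq R64 annotation, 99.4% at the same position. Fragments behind a value were taken as the square of 2 FPKM over the upper bound's distance from FPKM, which assumes bounds of 2 standard errors, a level the headers do not state; such intervals cover counting error only.

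Tests used log2(FPKM + 1), which understates changes of low genes, for the 6560 genes of mean at least 1 FPKM, over the 22 libraries from 2 h on (limma 3.58.1 in R 4.3.3, trended prior): an F test of a natural spline with 4 df, and two-sided contrasts of window means, Benjamini-Hochberg adjusted over all tested genes, called at adjusted p under 0.05 and a log2 change or fitted range of at least 1. The libraries of a window are consecutive times of what may be 1 culture, so p-values measure the spread between times. Residuals of neighbouring libraries correlated among the members (median 0.34 around the spline, 0.30 around the windows), which makes p-values too small. The fits were tried on simulated data without correlation between libraries, which cannot show the false calls that such correlation brings. Ratios used exact two-sided permutation tests of mean log2 ratios (SciPy 1.17.1). These treat the libraries of 2 windows as exchangeable, which consecutive times are not, so a steady drift in time also gives a small p.

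The members, lists and tests were chosen with earlier results of these data known. The split of the first window, the 4 to 4.5 h step and the ratios were added after the values were seen. All 10 members are named, as are up to 4 genes of each other list by smallest adjusted p over the course and the 3 genes most like each member. LCD1, RAD54, CDC9, MFA2, HOP1 and MEK1 were named after their values were seen. Other scalings, pseudocounts, filters, spline df and left-out libraries were tried. Protein sequence was not used here.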

Additional observations from a re-analysis of the deposited data

Results flagged for a closer look

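TEL1 at 10 h stood apart from the other 4 libraries from 6.5 to 10 h: 9.05 FPKM (bounds 7.87 to 10.2) against a next value of 3.34 FPKM, a gap that took 0.724 of the window's whole range. The gap was compared with the limit of 0.71 for 5 values. Of 40 groups of member and window, 1 was picked out in this way, and chance picks out about 1 in 20.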

How the results depend on the processing

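The count of members called over the whole course was 9; it was 4 with a mean of at least 10 FPKM, which leaves 4 members to test, 6 without the 7 h and 7.5 h libraries on either scale, 8 with a pseudocount of 5 or with 3 df (TEL1 missing, adjusted p = 0.0562), and 8 to 9 without 1 library. From 2 to 3 h to 3.25 to 4.5 h the count of 0 became 1 (MEC3, 1.25, adjusted p = 0.0465) on scaled values without the 7 h and 7.5 h libraries; it was 0 without any 1 library, as was the next step's. In the last step all 9 calls were falls. Scaled values gave 5 calls with a pseudocount of 1 or 0.1, made up of 4 falls and the rise of RAD9. Scaled values without the 7 h and 7.5 h libraries gave 4 calls, made up of 3 falls and the rise of RAD9. As deposited, 4 members fell with a pseudocount of 5, and so did the 4 left to test after the 10 FPKM filter. Without 1 library the count was 8 to 9. In the early step the 3 became 1 with a mean of at least 10 FPKM and 0 to 4 without 1 library. In the 4 to 4.5 h step the 0 became 1 (RAD17) on scaled values without the 7 h and 7.5 h libraries and was 0 to 1 without 1 library. At 2 h against 0 h the 4 became 2 when scaled. No value changed sign past its threshold under any alternative. The 5 ratios that passed kept p under 0.05 in the exact permutation test with a pseudocount of 1 and without each library of their windows.

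Over all genes, calls from 2 to 3 h to 3.25 to 4.5 h numbered 15 as deposited, 64 when scaled, 25 with a pseudocount of 5 and 0 to 48 without 1 library; those of the next step 222, 102 when scaled and 98 to 314 without 1 library. In the last step 268 rose and 2876 fell as deposited, and 1034 rose and 1120 fell when scaled; the total of 3144 became 2080 with a pseudocount of 5 and 2045 without the 7 h and 7.5 h libraries. In the early step 394 became 673 without these 2 libraries and 43 to 699 without 1 library; in the 4 to 4.5 h step 124 became 59 with a pseudocount of 0.1, 74 with a mean of at least 10 FPKM and 199 without the 2 libraries, and 2 to 216 without 1 library. Over the course 5448 became 3614 with a mean of at least 10 FPKM. The cause of these shifts was not tested. No paired analysis was possible because the labels give 1 library per time and no replicate numbers. Depth was lowest for RAD24 and CHK1, at 2 to 35 and 1 to 49 implied fragments.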
